A study of Mus musculus with 12 samples.

Results

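The 7 genes described here, Ms4a1, Ms4a4b, Ms4a4c, Ms4a6b, Ms4a6c, Ms4a6d and Ms4a7, belong to the membrane-spanning 4A cluster on mouse chromosome 19. They were taken by symbol from 19938 genes that had a probe set with 1 gene symbol, leaving out Ms4a2, the beta chain of the IgE receptor. They were chosen by name with their log2 signals on these 12 arrays already known, so their levels and differences are a description, and p-values from the fit of all genes are given only to set them against the spread between arrays. Each of the 7 had 1 probe set, so the rule of keeping the probe set with the highest mean made no choice among them. Expression was measured on 12 single-colour arrays of bone marrow derived mast cells, which are grown from marrow with stem cell factor (12.5 ng/ml) and interleukin 3 (10 ng/ml). There were 3 arrays in each of 4 groups, C57BL/6 wild type and ACKR2-/- (also written D6-/-) at 2 and at 10 weeks of culture, all labelled as female mice of 4 to 6 weeks. ACKR2 is an atypical chemokine receptor that takes up inflammatory CC chemokines. The arrays of a group are labelled as biological replicates, with nothing to show which animal or flask each came from, and their spread may be partly technical. The labels also say that some 2-week cultures were purified on a column for CD117, without saying which.

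The Ms4a genes encode small proteins that span the membrane several times and mostly sit beside other receptors at the cell surface. Their expression divides among blood lineages. Ms4a1 encodes CD20 of B cells, Ms4a2 a signalling chain of the IgE receptor in mast cells and basophils, and Ms4a4b and Ms4a6b are known from T cells. Ms4a4c, a close paralog of Ms4a4b, is often found among interferon-induced genes of mouse leukocytes. Ms4a6c is known from monocytes, and Ms4a6d and Ms4a7 from macrophages. Apart from the column purification of some cultures named above, no sorting of cell types is given for these arrays. The genes were therefore related to cell types through the mean log2 level of marker genes on the same array. In such bulk RNA, fewer cells of a type and less RNA per cell cannot be told apart.

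Not every array showed the cells its label names. The mean of 19 mast cell receptor and identity genes lay between 11.30 and 11.54 on 8 arrays, the 6 labelled 10 weeks and wild type 2-week arrays 1 and 2. It lay between 7.34 and 7.55 on the other 4, wild type 2-week array 3 and the 3 ACKR2-/- 2-week arrays. The IgE receptor gene Fcer1a had log2 signals up to 5.47 among the 4 arrays and from 13.74 upward among the 8. B cell markers averaged between 9.65 and 12.58 on the 4 arrays and between 6.76 and 7.17 on the 8, and T and NK cell markers between 8.25 and 11.53 against 7.05 to 7.60. The Y-linked gene Kdm5d read 10.06 to 10.51 on the 4 arrays and up to 6.42 on the 8, although the labels give female mice throughout. Groups are therefore named as labelled, and results are given without these arrays too where a fit is possible. Comparisons with the ACKR2-/- 2-week group have no such fit, since all its arrays are among the 4.

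Promoter windows, 250 bases before to 50 after the annotated start, were found for 5 of the 7 genes in a table from RefSeq (build GRCm38.p6). Ms4a1 and Ms4a6d were not among them. The windows of 2 pairs of paralogs are shown, Ms4a4b with Ms4a4c and Ms4a6b with Ms4a6c. Over the 8 arrays high in mast cell transcripts, Pearson's r was -0.391 for the first pair and 0.852 for the second. Ms4a4b spanned only 0.46 log2 units on those 8. Ms4a4b and Ms4a4c were both higher on each of the other 4 arrays than on any of the 8. So was Ms4a6b, but not Ms4a6c. Capitals mark the longest run of identical bases within each pair, 20 bases for the first and 48 for the second.
Ms4a4b (chr19:11443308-11443607, strand +): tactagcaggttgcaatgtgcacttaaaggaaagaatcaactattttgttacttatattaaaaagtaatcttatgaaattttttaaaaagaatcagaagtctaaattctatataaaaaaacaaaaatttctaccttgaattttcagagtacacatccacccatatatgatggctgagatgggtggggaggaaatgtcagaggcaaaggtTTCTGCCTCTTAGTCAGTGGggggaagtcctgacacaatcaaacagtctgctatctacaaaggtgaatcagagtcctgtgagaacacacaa
Ms4a4c (chr19:11407411-11407710, strand +): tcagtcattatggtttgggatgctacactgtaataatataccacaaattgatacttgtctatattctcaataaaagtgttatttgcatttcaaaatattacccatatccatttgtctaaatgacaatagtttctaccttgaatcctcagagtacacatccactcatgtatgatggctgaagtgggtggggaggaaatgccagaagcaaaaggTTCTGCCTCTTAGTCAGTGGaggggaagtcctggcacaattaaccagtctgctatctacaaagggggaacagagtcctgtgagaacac
Ms4a6b (chr19:11518309-11518608, strand +): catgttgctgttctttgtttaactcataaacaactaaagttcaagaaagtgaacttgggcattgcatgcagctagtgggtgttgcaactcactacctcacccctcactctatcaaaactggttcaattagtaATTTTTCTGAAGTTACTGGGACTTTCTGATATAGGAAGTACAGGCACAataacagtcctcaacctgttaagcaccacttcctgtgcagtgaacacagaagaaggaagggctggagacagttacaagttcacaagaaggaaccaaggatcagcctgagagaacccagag
Ms4a6c (chr19:11469118-11469417, strand +): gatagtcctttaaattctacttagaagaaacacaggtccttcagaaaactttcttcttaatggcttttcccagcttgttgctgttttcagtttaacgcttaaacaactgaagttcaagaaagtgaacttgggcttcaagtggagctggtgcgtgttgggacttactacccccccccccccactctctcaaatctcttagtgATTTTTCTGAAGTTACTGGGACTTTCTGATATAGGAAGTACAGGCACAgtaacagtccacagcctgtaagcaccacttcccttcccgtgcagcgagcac
In a global alignment, Ms4a4b and Ms4a4c were identical at 237 positions (79.0% of the window) and Ms4a6b and Ms4a6c at 197 (65.7%). The 13 other pairs of windows, which include both starts of Ms4a7, were identical at 56.3% to 61.7% and shared runs of 7 to 9 bases. Similar transcripts can share probes, so the signals of such paralogs may not be fully separate.

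The windows were also searched on both strands for 11 short motifs, each match being a description of the letters and not a binding site. Ms4a6b held 1 ETS site (AGGAAGTG, bases 207 to 214, found in 4.07% of 32851 windows). Ms4a4c held 1 octamer (ATGCAAAT, bases 81 to 88, 1.74%) and 1 RUNX site (TGTGGT, bases 40 to 45, 16.8%). These 3 matches read on the strand opposite to the one printed. Ms4a1 and Ms4a6d had no window to search. The windows of the other 5 genes held no match to the interferon-stimulated response element (GAAA, 2 bases of any kind and GAAA again, 3.44%). They held none to the ETS-IRF composite element (GGAA, 2 bases of any kind and GAAA, 2.72%), the PU box (GAGGAAGT, 3.2%) or the C/EBP site (TTGCGCAAT, 0.0487%). The same held for the GATA site (AGATAA, 11.2%), the TCF site (CTTTGAA, 5.14%), the E-box (CACCTG, 20.2%) and the STAT site (TTCNNNGAA, 8.3%). The ETS site and the PU box overlap in their letters. The window of Ms4a2, the mast cell gene of the same cluster, held 3 matches to the GATA site, shown in capitals. Only the letters AGATAA were searched, so other forms of a GATA site were not counted in any window. The windows of Ms4a4b and Ms4a4c, for example, hold the near form AGATAG on the other strand. Whether GATA sites set Ms4a2 apart from the other genes was not tested.
Ms4a2 (chr19:11623670-11623969, strand -): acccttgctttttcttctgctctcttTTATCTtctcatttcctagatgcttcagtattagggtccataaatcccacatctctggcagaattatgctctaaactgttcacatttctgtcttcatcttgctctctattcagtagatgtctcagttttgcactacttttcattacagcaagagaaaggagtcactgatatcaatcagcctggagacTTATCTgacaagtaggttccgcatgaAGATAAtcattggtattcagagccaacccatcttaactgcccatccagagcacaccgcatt

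Ms4a1 and Ms4a4b were low on all 8 arrays high in mast cell transcripts and higher on the other 4, where ACKR2-/- 2-week array 3 was the highest for Ms4a1 and the lowest for Ms4a4b. Ms4a1 read 5.51, 5.52 and 9.98 on wild type 2-week arrays 1 to 3 and 10.08, 10.29 and 13.56 on the ACKR2-/- 2-week arrays. At 10 weeks it read 5.32, 5.77 and 5.58 in wild type and 5.87, 5.73 and 5.36 in ACKR2-/-. ACKR2-/- 2-week array 3 thus lay between 3.27 and 3.58 above the other 3 high arrays, and the 10-week groups overlapped. Ms4a4b read 5.07, 5.07 and 12.31 on the wild type 2-week arrays and 12.16, 12.23 and 8.35 on the ACKR2-/- 2-week arrays. Its 10-week values were 5.04, 5.08 and 5.14 in wild type and 5.34, 4.88 and 5.27 in ACKR2-/-. Here ACKR2-/- 2-week array 3 differed from the other 3 by -3.95 to -3.80, the reverse of Ms4a1. Over the 8 arrays Ms4a1 spanned 0.56 and Ms4a4b 0.46 on the log2 scale, close to or below the median span of all genes, 0.56.

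**Figure D1:**
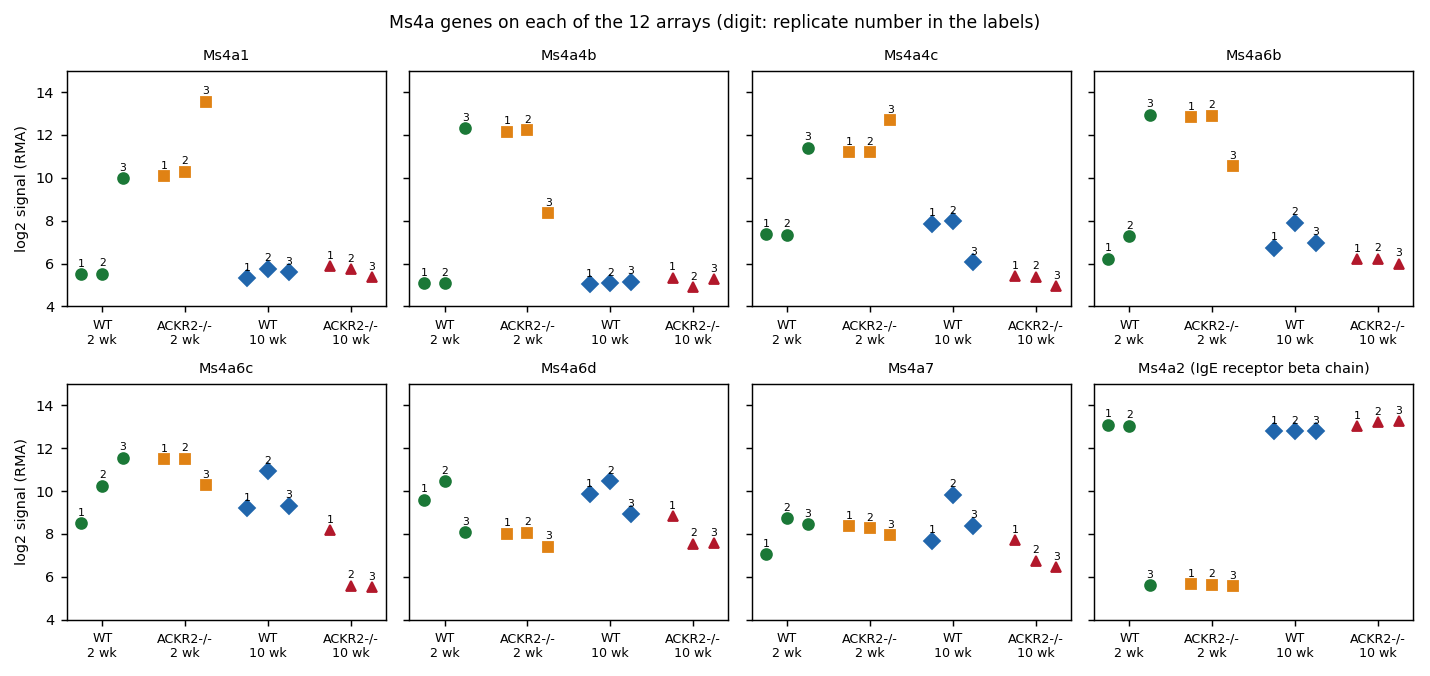
Log2 signal (vertical axis) of the 7 Ms4a genes and of Ms4a2 on each array, by group as labelled (horizontal axis), with 1 point per array and its replicate number above it. Ms4a1, Ms4a4b, Ms4a4c and Ms4a6b are higher on wild type 2-week array 3 and the ACKR2-/- 2-week arrays than on any other array, Ms4a2 is lower there, and Ms4a6c is lowest on ACKR2-/- 10-week arrays 2 and 3.

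Ms4a6b and Ms4a4c were also higher on each of the 4 arrays than on any of the 8, and in addition varied among the 8. Ms4a6b read 6.23, 7.28 and 12.93 on the wild type 2-week arrays and 12.83, 12.88 and 10.55 on the ACKR2-/- 2-week arrays. At 10 weeks it read 6.74, 7.91 and 6.97 in wild type and 6.20, 6.23 and 5.99 in ACKR2-/-. Like Ms4a4b it was lower on ACKR2-/- 2-week array 3 than on the other 3 high arrays, by a difference of -2.39 to -2.28. Ms4a4c read 7.36, 7.34 and 11.41 on the wild type 2-week arrays and 11.19, 11.20 and 12.69 on the ACKR2-/- 2-week arrays. Its 10-week values were 7.86, 7.98 and 6.06 in wild type and 5.41, 5.39 and 4.94 in ACKR2-/-. On ACKR2-/- 2-week array 3 it was higher by 1.28 to 1.5, the direction of Ms4a1 and not of its paralog Ms4a4b. At 10 weeks all 3 ACKR2-/- arrays lay below all 3 wild type arrays for both genes.

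Ms4a6c, Ms4a6d and Ms4a7 did not separate the 4 arrays from the 8 and varied widely among the 8. Ms4a6c read 8.51, 10.25 and 11.55 on the wild type 2-week arrays, and 11.48, 11.51 and 10.28 on the ACKR2-/- 2-week arrays. At 10 weeks it read 9.19, 10.92 and 9.31 in wild type and 8.16, 5.57 and 5.50 in ACKR2-/-. Its span of 5.41 over the 8 arrays was at the 99.9th percentile of all genes, with ACKR2-/- 10-week arrays 2 and 3 far below the rest. Ms4a6d read 9.60, 10.46 and 8.09 on the wild type 2-week arrays and 8.01, 8.06 and 7.39 on the ACKR2-/- 2-week arrays. Its 10-week values were 9.85, 10.46 and 8.91 in wild type and 8.84, 7.54 and 7.56 in ACKR2-/-. It was the gene of the 7 that read higher on wild type 2-week arrays 1 and 2 than on all 4 arrays low in mast cell transcripts. Ms4a7 read 7.04, 8.74 and 8.46 on the wild type 2-week arrays and 8.37, 8.27 and 7.95 on the ACKR2-/- 2-week arrays. At 10 weeks it read 7.68, 9.84 and 8.39 in wild type and 7.71, 6.75 and 6.44 in ACKR2-/-. Wild type 10-week array 2 was its highest and ACKR2-/- 10-week array 3 its lowest, and the 10-week groups overlapped through ACKR2-/- array 1.

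Among the 4 arrays low in mast cell transcripts, ACKR2-/- 2-week array 3 differed from the other 3 in the lymphoid marker lists as it did in the lymphoid Ms4a genes. On wild type 2-week array 3 and the ACKR2-/- 2-week arrays the 13 measured B cell markers averaged 9.65, 9.78, 9.78 and 12.58, highest on the array where Ms4a1 was highest. The 17 T and NK cell markers averaged 11.53, 11.46, 11.47 and 8.25 there, so that the array lowest in them was also lowest in Ms4a4b and Ms4a6b. The 21 interferon-stimulated genes averaged 9.55, 9.41, 9.49 and 9.29, lowest on the array where Ms4a4c was highest. The 9 MHC class II presentation genes averaged 11.78, 11.90, 11.93 and 12.92, with the same top array as Ms4a4c and Ms4a1. No correlation with a marker list was taken across the gap between the 4 arrays and the 8. Within the 8 arrays the B cell, T and NK cell and MHC class II lists fell into separate clusters and were left without a correlation. ACKR2-/- 10-week arrays 2 and 3 lay apart and low in each, joined by wild type 10-week array 1 in the B cell list.

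**Figure D2:**
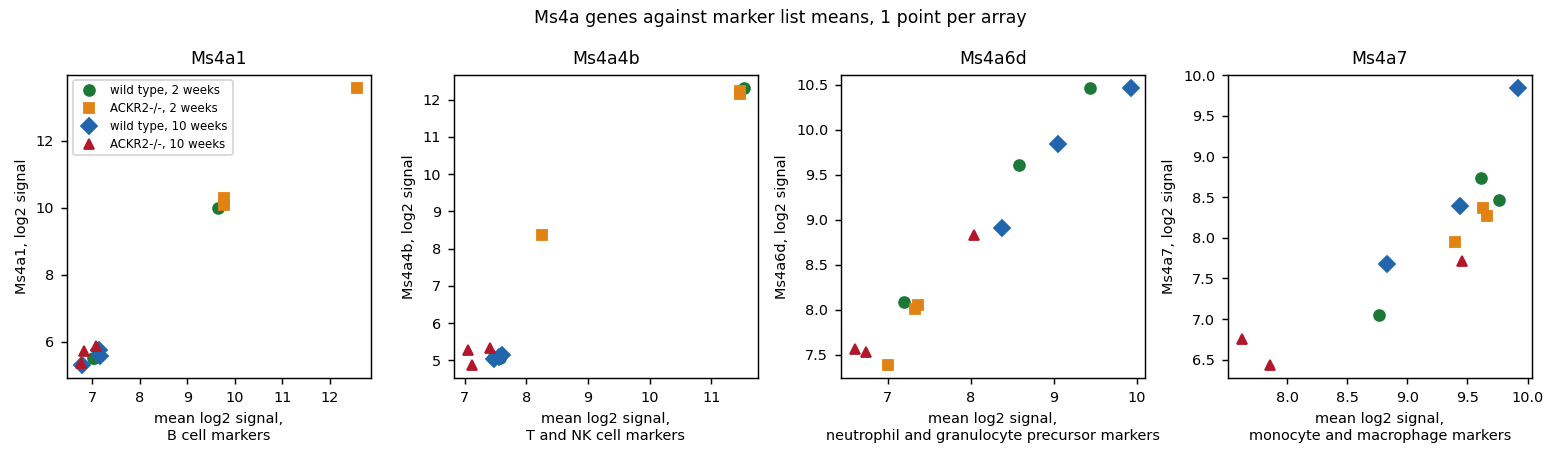
Log2 signal of a gene (vertical axis) against the mean log2 signal of a marker list (horizontal axis), 1 point per array, coloured by group as labelled. Ms4a1 is highest on the array with a B cell marker mean of 12.58, Ms4a4b on the 3 arrays with T and NK cell marker means of 11.46 to 11.53, and Ms4a6d and Ms4a7 spread along the neutrophil and monocyte lists.

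On the 8 arrays, Ms4a4c, Ms4a6b, Ms4a6c, Ms4a6d and Ms4a7 were related to neutrophil markers by Pearson's r, and Ms4a6c, Ms4a6d and Ms4a7 also to monocyte and macrophage markers. Ms4a1 and Ms4a4b had no relation past the test. Eosinophil and basophil markers were not among the lists correlated, so relations particular to neutrophil markers are not shown. Both of these lists were also lowest of the 8 arrays on ACKR2-/- 10-week arrays 2 and 3. There eosinophil markers averaged 6.75 and 6.81 (7.48 to 8.62 on the other 6) and basophil markers 8.82 and 8.81 (10.54 to 11.21). The 7 basophil markers are Mcpt8, Prss34, Cd200r3, Il4, Il13, Gata1 and Cebpa. Cd200r3 also stands in the mast cell list, so the 2 lists are not separate. Neutrophil and granulocyte precursor markers (19 genes) averaged 6.73 and 6.60 on ACKR2-/- 10-week arrays 2 and 3 and 8.04 to 9.93 on the other 6. With this mean Ms4a6d had Pearson's r = 0.987 and Spearman's rho = 0.952 over 8 arrays (adjusted exact permutation p = 0.00278 and 0.0156). Ms4a6c had r = 0.981 and rho = 0.929 (adjusted exact permutation p = 0.00382 and 0.0156). For Ms4a4c r was 0.903 and rho 0.929 (adjusted exact permutation p = 0.00995 and 0.0156). For Ms4a6b r was 0.836 and rho 0.905 (adjusted exact permutation p = 0.0283 and 0.0256). Ms4a7 had r = 0.859 and rho = 0.81, and its rho missed the threshold (adjusted exact permutation p = 0.0212 and 0.0678). Leaving out ACKR2-/- 10-week arrays 2 and 3, the farthest from the median, r over 6 arrays was 0.952 for Ms4a6d, 0.923 for Ms4a6c, 0.839 for Ms4a4c, 0.869 for Ms4a6b and 0.747 for Ms4a7.

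Monocyte and macrophage markers (19 genes) averaged 7.62 and 7.86 on the same 2 arrays and 8.76 to 9.92 on the other 6. Ms4a7 had r = 0.891 and rho = 0.952 with them (adjusted exact permutation p = 0.015 and 0.0156), and r = 0.894 over 6 arrays without those 2. Ms4a6c had r = 0.93 and rho = 0.833 (adjusted exact permutation p = 0.015 and 0.0538), and r = 0.674 without them. Ms4a6d had r = 0.824 and rho = 0.762 (adjusted exact permutation p = 0.0373 and 0.0858), and its r of 0.281 without them shows that this relation rests on ACKR2-/- 10-week arrays 2 and 3. Ms4a6b (r = 0.756, adjusted exact permutation p = 0.0713) and Ms4a4c (r = 0.572, adjusted exact permutation p = 0.26) did not pass with this list, and without those 2 arrays r was 0.734 and -0.11. The 2 list means were themselves correlated (r = 0.866 over 8 arrays), so the relations to the one and to the other are not separate. Mast cell receptor and identity genes spanned only 11.30 to 11.54 on the 8 arrays, and with them Ms4a6b had r = -0.89 and rho = -0.857 (adjusted exact permutation p = 0.0212 and 0.0429). Ms4a7 had r = -0.87 and rho = -0.762 (adjusted exact permutation p = 0.0212 and 0.0858). Ms4a6c passed by rho alone (r = -0.752 and rho = -0.881, adjusted exact permutation p = 0.0657 and 0.0338). Without wild type 10-week arrays 2 and 3, the farthest on that list, r was -0.689 for Ms4a6b, -0.617 for Ms4a7 and -0.753 for Ms4a6c. No relation to interferon-stimulated genes passed, Ms4a4c having the largest r at 0.581 (adjusted exact permutation p = 0.26). That list spanned only 7.69 to 8.05 on the 8 arrays. On the 4 arrays low in mast cell transcripts it lay higher, at 9.29 to 9.55, as did Ms4a4c and Ms4a6b. The relation across that gap was not tested.

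All p-values of relations are two-sided and adjusted over the 28 pairs of 7 genes and 4 lists. They treat the 8 arrays as independent, although wild type arrays 1 and 2 of the 2 weeks deviate together by number (the neutrophil list averaged 8.58 and 9.05 on arrays 1 and 9.44 and 9.93 on arrays 2), so they may be too small. Of the 28 pairs, 10 passed by Pearson's r, 7 by Spearman's rho and 6 by both, while 0 passed over 6 arrays. The 10 all kept their sign over 6 arrays. So few arrays have few orderings, and even r = 0.952 for Ms4a6d with neutrophil markers had an adjusted exact permutation p of 0.104. The lack of passes over 6 arrays therefore decides little. The 8 arrays belong to 3 labelled groups, and no group holds enough arrays for a value of its own.

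**Figure D3:**
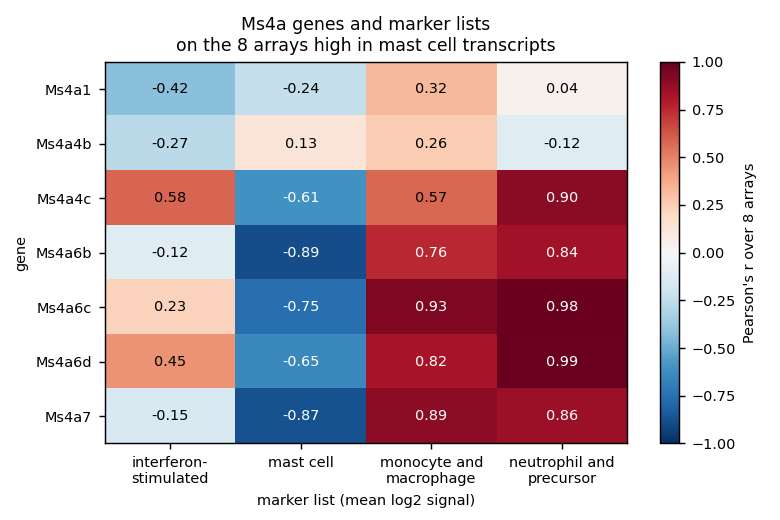
Pearson's r (colour and printed value) between each Ms4a gene (rows) and the mean of each marker list (columns) over the 8 arrays high in mast cell transcripts. Values with the neutrophil and granulocyte precursor list run from 0.84 to 0.99 for Ms4a4c, Ms4a6b, Ms4a6c, Ms4a6d and Ms4a7, and are 0.04 for Ms4a1 and -0.12 for Ms4a4b.

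Genes with the most similar pattern were found by Pearson's r, given as a description with no test. Ms4a1, Ms4a4b, Ms4a4c and Ms4a6b separate the 4 arrays low in mast cell transcripts from the 8. Their r over 12 arrays therefore largely restates that gap. Over 12 arrays Ms4a1 was nearest to Fcer2a, the low-affinity IgE receptor of B cells (r = 0.998), Ly6d, a surface protein of B lineage cells (0.997), and Fcmr, an IgM receptor (0.996). Ms4a4b was nearest to Klri1 (0.997) and Klrd1 (0.996), receptors of NK cells, and Il2rb, a chain of the interleukin 2 receptor (0.996). Ms4a4c was nearest to Kmo, an enzyme of tryptophan breakdown (0.99), Pde4b, a cyclic AMP phosphodiesterase (0.988), and Marcks (0.988). Ms4a6b was nearest to Zbp1, a nucleic acid sensor (0.991), Ifit1bl2 (0.99) and Inpp4a (0.99). Ms4a6c was nearest to Clec4a1, a lectin of myeloid cells (0.987), Plxnb2 (0.982) and Pparg (0.979). Ms4a6d was nearest to Clec5a, a myeloid lectin (0.98), Mpo, the myeloperoxidase of neutrophil granules (0.976), and Nrg1 (0.963). Ms4a7 was nearest to F11r (0.959), Mgst1 (0.953) and Csf3r, the G-CSF receptor (0.943). Fcer2a also stands in the B cell list, Mpo and Csf3r in the neutrophil list, and Zbp1 in the interferon-stimulated list.

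Restricted to the 8 arrays, Ms4a6d was nearest to Mpo (r = 0.992), Dock4 (0.989) and Itga1 (0.988). Ms4a6c was nearest to Scpep1 (0.994), Clec4a1 (0.994) and Mef2c (0.993). Ms4a4c was nearest to Prg2, the major basic protein of eosinophil granules (0.991), Ptgr1 (0.981) and Trem1, a receptor of neutrophils and monocytes (0.978). Prg2 also stands in the eosinophil list. Ms4a7 was nearest to Saa3, an acute phase protein (0.988), Hebp1 (0.987) and Tjp3 (0.985). Ms4a6b was nearest to Gadd45a (0.975), Saa3 (0.967) and Ms4a7 of the same cluster (0.96). Ms4a1 was nearest to Itga8 (0.954), Tmbim7 (0.948) and Spz1 (0.939), and Ms4a4b to Ccr1l1 (0.921), Tfpi (0.909) and Klra2 (0.902), over the narrow spans of Ms4a1 and Ms4a4b given above. Between the members, r over the 8 arrays was 0.951 for Ms4a6c with Ms4a6d and 0.852 for Ms4a6b with its paralog Ms4a6c, against -0.391 for Ms4a4b with Ms4a4c.

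Among 12 other Ms4a genes with a probe set of 1 symbol, 7 spanned less than 1 log2 unit over the 12 arrays (Ms4a5, Ms4a10, Ms4a12, Ms4a13, Ms4a15, Ms4a19 and Ms4a20, between 0.34 and 0.56). Ms4a12, Ms4a19 and Ms4a20 were added to the list after their values were seen. Ms4a2, next to Ms4a6d in the order of the cluster, read 12.78 to 13.25 on the 8 arrays and 5.57 to 5.64 on the 4. It spanned 0.47 over the 8 arrays, where Ms4a6d spanned 2.92. Ms4a3, a gene of granulocyte precursors, read 9.37, 8.83, 9.88 and 9.63 on wild type 2-week arrays 1 and 2 and wild type 10-week arrays 1 and 2. It read 7.18 on wild type 10-week array 3, at most 7.21 on the ACKR2-/- 10-week arrays and at most 6.33 on the 4 arrays low in mast cell transcripts. Ms4a4d read 7.8 to 8.09 on 3 of these 4, 7.5 on ACKR2-/- 2-week array 3, and at most 6.07 on the 8. Ms4a4a, a gene of macrophages, read 7.79, 8.87 and 7.52 on the wild type 10-week arrays and 6.43, 5.83 and 5.85 on the ACKR2-/- 10-week arrays.

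The comparison of genotypes at 10 weeks involves only arrays high in mast cell transcripts. Of the 7 genes, 4 were lower on every ACKR2-/- array than on every wild type array, Ms4a4c, Ms4a6b, Ms4a6c and Ms4a6d, as were 5.98% of all genes, and 0 were higher throughout (8.61%). The log2 difference was -3.39 ± 0.88 (SE) for Ms4a6c, -2.05 ± 0.98 for Ms4a4c, -1.76 ± 0.60 for Ms4a6d, -1.67 ± 0.57 for Ms4a7 and -1.07 ± 1.40 for Ms4a6b. Ms4a1 and Ms4a4b differed by 0.10 ± 1.17 and 0.08 ± 1.70. Limma called 0 of 7, as it called 0% of 19938 genes at an adjusted p under 0.05 (Benjamini-Hochberg), while 3 of the 7 and 1566 of all genes had an unadjusted p under 0.05. The lowest limma adjusted p of the 7 was 0.48, for Ms4a6c. The median difference of the 7 was -1.67, beside 0.0076 over all genes tested, -1.00 over 19 monocyte and macrophage markers and -2.17 over 19 neutrophil markers. All 19 neutrophil markers and 18 of 19 monocyte and macrophage markers lay below 0, with none called in either list. Their part in the differences of the Ms4a genes was not tested.

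Without wild type 10-week array 2, where Ms4a7 was highest, the difference of Ms4a7 was -1.07 ± 0.52 and that of Ms4a6b -0.72 ± 1.63. ACKR2-/- 10-week array 1 lay nearer to wild type than arrays 2 and 3 for Ms4a6c, Ms4a6d and Ms4a7. Without it limma called 129 genes and 0 of the 7, with Ms4a6c at -4.27 ± 0.82 and a limma adjusted p of 0.0581. Without the 4 arrays low in mast cell transcripts, whose spread enters the shared error, the SE was 0.17 for Ms4a1 and 0.45 for Ms4a4c. Limma then called 0 genes, with 2567 at an unadjusted p under 0.05 and 5 of the 7 among them, and the limma adjusted p was 0.236 for Ms4a4c and Ms4a6c.

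**Figure D4:**
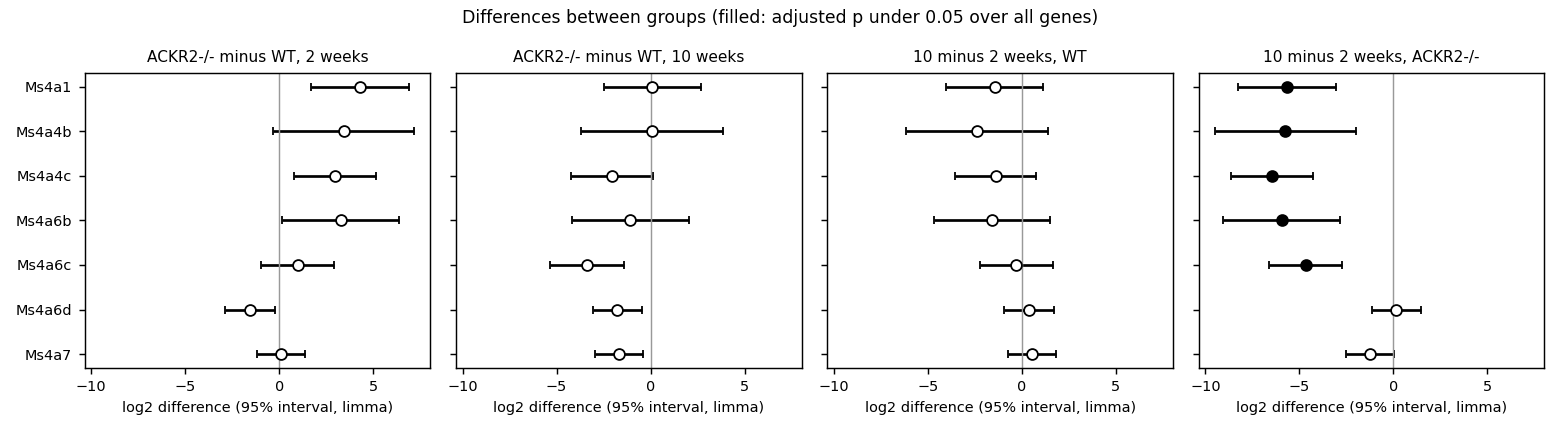
Log2 difference (horizontal axis) of each Ms4a gene (rows) in the 4 comparisons, with the 95% interval from limma. Filled points passed an adjusted p of 0.05 over all genes. These are Ms4a1, Ms4a4b, Ms4a4c, Ms4a6b and Ms4a6c between 10 and 2 weeks in ACKR2-/-, from -6.45 to -4.67.

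At 2 weeks, Ms4a1, Ms4a4b, Ms4a4c and Ms4a6b were on average 2.99 to 4.31 log2 units higher on the arrays labelled ACKR2-/-, and Ms4a6d was lower by 1.57, none past the threshold. The differences were 4.31 ± 1.17 (SE) for Ms4a1, 3.43 ± 1.70 for Ms4a4b, 3.27 ± 1.40 for Ms4a6b, 2.99 ± 0.98 for Ms4a4c and 0.98 ± 0.88 for Ms4a6c. Ms4a7 differed by 0.12 ± 0.57 and Ms4a6d by -1.57 ± 0.60. Ms4a1 was the 1 gene of 7 whose ACKR2-/- arrays all lay above the wild type arrays (4.97% of all genes), and Ms4a6d the 1 whose arrays all lay below (8.6%). Limma called 0 of 7 and 0% of all genes, with 4 of 7 and 3480 of all genes at an unadjusted p under 0.05 and adjusted p from 0.225 upward for the 7. Wild type 2-week array 3 lay near ACKR2-/- 2-week arrays 1 and 2 for the 7 genes. ACKR2-/- 2-week array 3 differed from it by 3.58 for Ms4a1 and -3.95 for Ms4a4b. With wild type 2-week array 3 left out, limma called 5 of the 7 and 4738 genes. In that fit Ms4a1 differed by 5.80 ± 0.81, Ms4a4b by 5.84 ± 0.91, Ms4a6b by 5.33 ± 0.64, Ms4a4c by 4.34 ± 0.58 and Ms4a6d by -2.21 ± 0.50, with limma adjusted p between 0.000191 and 0.00898. Without wild type 2-week array 1 the differences were smaller, 2.23 ± 1.78 for Ms4a4b, 1.98 ± 1.34 for Ms4a6b and 0.19 ± 0.86 for Ms4a6c. Without wild type 2-week array 2 they were 2.23 ± 1.79 for Ms4a4b and -1.03 ± 0.58 for Ms4a6d, and limma called 0 of the 7 in both fits. The fit without array 3 sets 2 arrays high in mast cell transcripts against 3 low in them, so that genotype and cell content cannot be told apart.

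Between 2 and 10 weeks in ACKR2-/-, limma called 5 of the 7 genes lower and none higher. Limma called 16.8% of all genes in this comparison and 6.33% lower. The log2 difference was -6.45 ± 0.98 (SE) for Ms4a4c, -5.95 ± 1.40 for Ms4a6b, -5.75 ± 1.70 for Ms4a4b, -5.66 ± 1.17 for Ms4a1 and -4.67 ± 0.88 for Ms4a6c, with limma adjusted p between 0.0137 and 0.0427. Ms4a7 differed by -1.23 ± 0.57 (limma adjusted p = 0.18) and Ms4a6d by 0.16 ± 0.60 (0.899). In 6 of the 7 all 10-week arrays lay below all 2-week arrays, as in 17.7% of all genes, Ms4a6d overlapped, and 0 lay above throughout (26.7%). All 13 B cell markers and 3 of 17 T and NK cell markers were called lower, while 13 of 19 mast cell genes were called higher. Lower calls were not confined to lymphoid lists. They also covered 9 of 9 MHC class II presentation genes, 16 of 21 interferon-stimulated genes and 8 of 13 dendritic cell markers. Of 19 monocyte and macrophage markers 8 were called lower and 2 higher, and of 19 neutrophil markers 0 in either direction. Basophil markers had 3 of 7 called higher and 0 lower. By direction alone, 16 of the 17 T and NK cell markers lay below 0 (median difference -3.46). All 19 mast cell genes lay above 0. All 2-week arrays here are low in mast cell transcripts, so time cannot be told apart from the cell content of the arrays. The calls rest on few arrays. Without ACKR2-/- 10-week array 2 or 3 limma called 0 genes and 0 of the 7 (lowest adjusted p of the 7, 0.0555 and 0.0584), and without ACKR2-/- 2-week array 1 or 2 it called 3 of the 7 and 1514 or 1391 genes.

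Between 2 and 10 weeks in wild type none of the 7 genes changed past the threshold, and the direction of most rested on wild type 2-week array 3. Ms4a4b differed by -2.39 ± 1.70, Ms4a6b by -1.60 ± 1.40, Ms4a1 by -1.45 ± 1.17, Ms4a4c by -1.40 ± 0.98 and Ms4a6c by -0.30 ± 0.88. Ms4a6d and Ms4a7 differed by 0.36 ± 0.60 and 0.55 ± 0.57. Limma called 0 of 7 and 0% of all genes, with 0 of 7 and 1326 of all genes at an unadjusted p under 0.05. The arrays of the 2 weeks overlapped for all 7 genes, while 5.29% of all genes lay higher and 3.45% lower at 10 weeks without overlap. Without the 4 arrays low in mast cell transcripts, which leaves 2 arrays against 3, the difference was 0.04 ± 0.19 for Ms4a1, 0.02 ± 0.15 for Ms4a4b, -0.05 ± 0.50 for Ms4a4c and 0.46 ± 0.38 for Ms4a6b. Ms4a6c, Ms4a6d and Ms4a7 then differed by 0.43 ± 0.90, -0.29 ± 0.53 and 0.74 ± 0.69. The genotype by week interaction was below 0 for all 7 genes, from -5.04 ± 1.39 for Ms4a4c to -0.20 ± 0.84 for Ms4a6d. Limma called 0 of 7 and 0% of all genes in it, with 3 of 7 and 2271 of all genes at an unadjusted p under 0.05, and 5 of 7 and 3138 genes called without wild type 2-week array 3. Without ACKR2-/- 10-week array 1 it called 29 genes and 0 of the 7.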

How the data were processed

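Log2 values of 35399 probe sets on 12 arrays were used as deposited. Per the submitters' processing notes, the authors used Partek 6.5 and RMA, which subtracts background, quantile-normalizes arrays and combines probes. Values of 2.66 to 14.91 and array medians of 7.76 to 7.90 fit a log2 scale. Without scanner files, signal over background and scan batches were not analysed here. The genome build is not given in the sources used here. The number of arrays limits the precision.

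The platform annotation gave 21789 probe sets 1 symbol, 1621 several (not named) and 11989 none. Per gene, the probe set with the highest mean was kept. Limma 3.58.1 in R 4.3.3 fitted 1 mean per group to 12 arrays (8 residual and 2.39 prior degrees of freedom). P-values were adjusted by Benjamini-Hochberg over 19938 genes, with a threshold of 0.05. The fit was tested on simulated data. Members, marker lists and tests were chosen with earlier results of these data known, and the motifs and the bound for separate clusters (a gap wider than the range on either side, with at least 2 arrays on each) after the values were seen. Named genes were the 7 members, other Ms4a genes, the 3 genes nearest to each member by Pearson's r (leaving out predicted genes, small RNAs, receptor segments and olfactory genes) and anchors of the marker lists. List genes without a probe set of 1 symbol were left out.

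Replicate numbers were checked for pairing by the correlation over genes of deviations from group means. In wild type, same-numbered arrays of 2 and 10 weeks had 0.166 to 0.359 and other pairs -0.266 to 0.023, so the replicate block used the numbers. For number 3 this pairing is not borne out. Kdm5d read 10.18 on wild type 2-week array 3 and 6.04 on wild type 10-week array 3. The mast cell list averaged 7.38 and 11.42 on these arrays. Alternatives were other groups of arrays in the fit, a replicate block, array weights, another variance model, scaling, probe set choice, a filter on dim genes and leaving out arrays.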

Additional observations from a re-analysis of the deposited data

How the results depend on the processing

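Of 714 member values under the alternatives, 644 kept their direction and their side of the threshold, 19 lost a call, 23 gained one and 28 changed sign. The counts of genes called moved with array weights, whose estimation did not fully converge, to 9197 at 2 weeks between genotypes (6 members), 9550 between weeks in ACKR2-/- and 4136 in the interaction (5 members). Leaving out single arrays gave 0 to 4738 genes and 0 to 5 members at 2 weeks, 0 to 129 genes at 10 weeks, 0 to 4994 genes and 0 to 5 members between weeks in ACKR2-/-, and 0 to 3138 genes and 0 to 5 members in the interaction. Fitting only the groups compared called Ms4a7 as well between weeks in ACKR2-/- (limma adjusted p = 0.0397). With the replicate block in all arrays, Ms4a4b lost that call (limma adjusted p = 0.0721) and 0 genes were called between weeks in wild type. With the replicate block in the wild type arrays alone, added after seeing the data, 0 genes were called there too, so the block changed no call between weeks in wild type. Comparisons with the ACKR2-/- 2-week group could not be fitted without the 4 arrays low in mast cell transcripts, which include all of that group. Of 28 relations to marker lists, 10 passed over 8 arrays and 0 over 6. All 10 kept their sign over 6 arrays, where the test could hardly pass, as given with the relations. The causes were not tested.

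Signs changed as follows. Between genotypes at 10 weeks, Ms4a4b was -0.0036 with array weights and -0.0054 when quantile normalised again, and without single arrays it ran from -0.0084 to 0.22 and Ms4a1 from -0.020 to 0.25. At 2 weeks Ms4a7 ran from -0.40 to 0.44. Between weeks in wild type, without the 4 arrays low in mast cell transcripts, Ms4a1 was 0.043, Ms4a4b 0.017, Ms4a6b 0.46, Ms4a6c 0.43 and Ms4a6d -0.29, and Ms4a6d was -0.89 with array weights. Without single arrays the ranges there were -2.19 to 0.043 for Ms4a1, -3.60 to 0.017 for Ms4a4b, -2.90 to 0.46 for Ms4a6b, -1.09 to 0.43 for Ms4a6c, -0.29 to 0.89 for Ms4a6d and -0.050 to 1.03 for Ms4a7. For Ms4a6d between weeks in ACKR2-/- the range was -0.27 to 0.38, with -0.29 under array weights, and in the interaction -0.73 to 0.45, with 0.60 under array weights.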

Other observations

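Tmem176a and Tmem176b, relatives of the Ms4a family that lie outside the cluster, had their highest values among the 8 arrays high in mast cell transcripts on ACKR2-/- 10-week arrays 2 and 3, where Ms4a6c was lowest. Tmem176a read 9.71 and 9.53 there and 8.09 to 9.09 on the other 6, and Tmem176b read 10.90 and 10.77 against 9.17 to 10.35. On the 4 arrays low in mast cell transcripts, both were lowest on ACKR2-/- 2-week array 3, Tmem176a at 7.85 against 9.45 to 9.65 and Tmem176b at 9.15 against 10.69 to 10.73.

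Basophil markers, 7 genes with Cd200r3 of the mast cell list among them, averaged 8.82 and 8.81 on ACKR2-/- 10-week arrays 2 and 3. They averaged 10.54 to 11.21 on the other 6 of the 8 arrays. Eosinophil markers, 7 genes, averaged 6.75 and 6.81 against 7.48 to 8.62.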
